A study of Mus musculus with 6 samples.

Results

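RNA levels of 36 genes, of glycolysis or of the pathway that responds to low oxygen, were measured in cultured liver progenitor-like cells (LPCs) of mice. The cells formed 3 groups of 2 RNA-seq libraries each. The 36 genes were taken from a list of glycolytic enzymes, their regulators and genes known to be induced by hypoxia, by symbol, wherever a symbol was present in all 6 count tables. All 36 were present, among 20570 genes shared by the tables. LPCs divide in culture and carry markers of bile duct epithelium, and the medium was TEM (Transition and Expansion Medium) for each group. The animals of every group were C57BL/6 mice of 6 to 8 weeks, per the labels.

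Bec_LPCs grew out of pieces of intrahepatic bile duct of wild-type mice, plated in matrigel, over 1 or 2 passages, and were sorted as single cells, Epcam+ per the series' design text. NPC_LPCs came from the non-parenchymal cells of AlbCreERT/R26GFP mice, in which an inducible Cre driven by the albumin promoter switches on a green reporter in hepatocytes and their descendants. Hep_LPCs came from hepatocytes of ROSA26tdTomato mice that had received AAV8-TBG-Cre, a virus that expresses Cre from a hepatocyte promoter. Per the growth protocol, those 4 libraries served to compare progenitor-like cells of the 2 origins. Nothing in the labels says whether the 2 libraries of a group came from separate animals or cultures, so p-values measure the spread between these libraries, which may be technical. The Y-linked gene Ddx3y had 1 read in Hep_LPCs replicate 2 and 1032 reads in Hep_LPCs replicate 1. It had 1431 to 2370 reads in the Bec_LPCs and NPC_LPCs libraries. The 2 Hep_LPCs libraries were thus unlike in this gene, and the reason was not tested.

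Total counts ran from 17575998 to 22985844 per library, and 3 reads corresponded to 0.127 to 0.178 CPM (CPM, reads scaled to a common library size with edgeR's TMM factors, the scale of every level below unless another is named). The Bec_LPCs tables list gene symbols in a different layout from the other 4 tables. Each Bec_LPCs table had 21820 named rows, against 21878 in each of the other 4. In each, 16 older symbols were updated, against 836 in each of the other 4. The make-up of the table and the group therefore cannot be told apart in any comparison with Bec_LPCs. The summed bile duct and epithelial markers (8 genes) reached 7543 to 11794 CPM in all 6 libraries, but their make-up differed. The keratins Krt8, Krt18 and Krt19 summed to 3922 and 3947 CPM in Bec_LPCs, 1668 and 3442 CPM in NPC_LPCs and 5824 and 9090.4 CPM in Hep_LPCs. Spp1, which encodes osteopontin, read 3114 and 2419 CPM, 9411 and 4314 CPM, and 3187 and 953 CPM in the same order. Epcam itself stood at 59.0 and 65.7 CPM in Bec_LPCs against 0.115 to 1.84 CPM in the other 4 libraries. The hepatocyte markers Cyp2e1 and Tat had no read in any library, and albumin (Alb) reached at most 2.40 CPM. Hnf4a, a transcription factor of hepatocytes, was nearly all of the summed level of this 8-gene list and read 126 and 104 CPM in Bec_LPCs, 28.8 and 51.2 CPM in NPC_LPCs and 248 and 263 CPM in Hep_LPCs. edgeR called it in all 3 comparisons, Ttr higher in Bec_LPCs than in NPC_LPCs, and Apoa1 lower in Bec_LPCs than in Hep_LPCs. Over all genes, 16.1% were called higher in Bec_LPCs than in Hep_LPCs and 4.89% than in NPC_LPCs. Stellate and mesenchymal markers were called higher for 5 of 7 tested genes against Hep_LPCs and for 3 of 7 against NPC_LPCs. Their sums were 1948 and 2037 CPM in Bec_LPCs, 1603 and 1934 CPM in NPC_LPCs and 2103 and 2279 CPM in Hep_LPCs, most of it Vim, with Lrat at 0 in all 6 libraries. Without Vim the other 7 summed to 186 and 223 CPM in Bec_LPCs, 3.64 and 17.1 CPM in NPC_LPCs and 5.15 and 3.32 CPM in Hep_LPCs, so both Bec_LPCs libraries stood far above the other 4.

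Glycolysis turns glucose into pyruvate in the cytosol. Glucose enters through a transporter, is phosphorylated by hexokinase and committed by phosphofructokinase, is split by aldolase, and then yields ATP in the payoff steps that end with pyruvate kinase. Pyruvate is reduced to lactate by lactate dehydrogenase or enters mitochondria, an entry that pyruvate dehydrogenase kinases restrain. When oxygen falls, prolyl hydroxylases of the Egln family no longer mark the factor HIF-1α for destruction, and HIF-1 then binds short elements with the core ACGTG or GCGTG to raise many genes of this pathway together with genes for vessel growth, pH control and mitophagy. In liver, mature hepatocytes use glucokinase and liver isozymes and can run the pathway backwards as gluconeogenesis, whereas proliferating cells in culture rely on the more widely expressed isozymes.

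Promoter windows from RefSeq on GRCm38.p6 are shown for 4 members because they hold the core of the hypoxia response element and belong to genes whose levels differed between groups in the tests below. Each window runs from 250 bases before to 50 bases after a start site, 5′ to 3′ on the strand of the gene. Capitals mark ACGTG or GCGTG on either strand (CACGT or CACGC as printed for the opposite strand), and a palindrome such as CACGTG counts as 2 overlapping matches. Ldha encodes the muscle-type lactate dehydrogenase subunit and has 2 windows, of which chr7:46846832-46847131 held 2 matches. The other, chr7:46845554-46845853 (plus strand), held 7 matches and is shown.
Ldha: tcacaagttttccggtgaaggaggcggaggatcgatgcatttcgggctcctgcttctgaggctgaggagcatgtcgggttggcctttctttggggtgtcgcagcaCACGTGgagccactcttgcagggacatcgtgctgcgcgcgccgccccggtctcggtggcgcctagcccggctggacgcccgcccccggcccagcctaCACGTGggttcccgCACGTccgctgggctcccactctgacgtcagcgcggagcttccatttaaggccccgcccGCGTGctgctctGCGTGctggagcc
Pgk1 encodes phosphoglycerate kinase, the first ATP-yielding enzyme of the payoff steps, and the window chrX:106186850-106187149 (plus strand) held 2 matches.
Pgk1: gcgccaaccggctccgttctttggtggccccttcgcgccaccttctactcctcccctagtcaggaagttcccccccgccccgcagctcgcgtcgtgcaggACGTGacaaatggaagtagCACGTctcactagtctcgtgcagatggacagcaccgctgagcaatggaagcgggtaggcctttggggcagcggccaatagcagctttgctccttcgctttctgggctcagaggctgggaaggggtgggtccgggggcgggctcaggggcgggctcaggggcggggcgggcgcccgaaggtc
Egln3 encodes an oxygen-sensing prolyl hydroxylase that is itself induced by HIF, and the window chr12:54203825-54204124 (minus strand) held 1 match.
Egln3: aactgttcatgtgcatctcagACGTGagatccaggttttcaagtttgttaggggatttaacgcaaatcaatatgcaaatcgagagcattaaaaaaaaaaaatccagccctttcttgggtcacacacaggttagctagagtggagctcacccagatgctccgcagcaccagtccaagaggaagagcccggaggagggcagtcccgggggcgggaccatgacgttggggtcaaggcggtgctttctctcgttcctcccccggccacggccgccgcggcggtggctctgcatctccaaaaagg
Car9 encodes carbonic anhydrase 9, a membrane enzyme of pH control, and the window chr4:43506776-43507075 (plus strand) held 1 match.
Car9: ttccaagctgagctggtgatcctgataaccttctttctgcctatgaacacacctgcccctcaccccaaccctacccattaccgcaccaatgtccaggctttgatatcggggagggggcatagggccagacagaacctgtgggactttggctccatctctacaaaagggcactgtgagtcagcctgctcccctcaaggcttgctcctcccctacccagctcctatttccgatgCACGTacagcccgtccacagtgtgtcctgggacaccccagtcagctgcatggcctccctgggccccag
Of the 34 members with a window in the RefSeq table, 31 (91.2%) held at least 1 match in some window, and 24 (70.6%) held at least 2. Among the 10320 tested genes with a window the shares were 67.3% and 38.1%, and 43.8% of all 32851 windows of this length held a match, against 39 of the members' 50 windows. The median GC content of the members' windows was 61.7%, against 52.7% over all windows. Eno2, Gpi1 and Tpi1 held no match, which says only that these letters are not in those windows. A match is a stretch of letters, and binding was not measured.

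Most members were expressed in every group. Between 29 and 31 of the 36 were above 10 CPM in each library, and every member had at least 1 read in each library except Adm, which had none in NPC_LPCs replicate 1. The 16 glycolytic enzymes from hexokinase to lactate dehydrogenase other than Gapdh summed to 5613 and 5810 CPM in Bec_LPCs, to 10268 and 9712 CPM in NPC_LPCs and to 10433 and 11754 CPM in Hep_LPCs. Both Bec_LPCs libraries thus lay below the other 4. The sum includes Pkm, Eno1, Aldoa, Pgk1, Tpi1, Pgam1 and Ldhb. As set out below, these genes were not taken as counted alike between Bec_LPCs and the other groups. In bulk RNA, fewer cells of a type and less RNA per cell cannot be told apart.

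**Figure D1:**
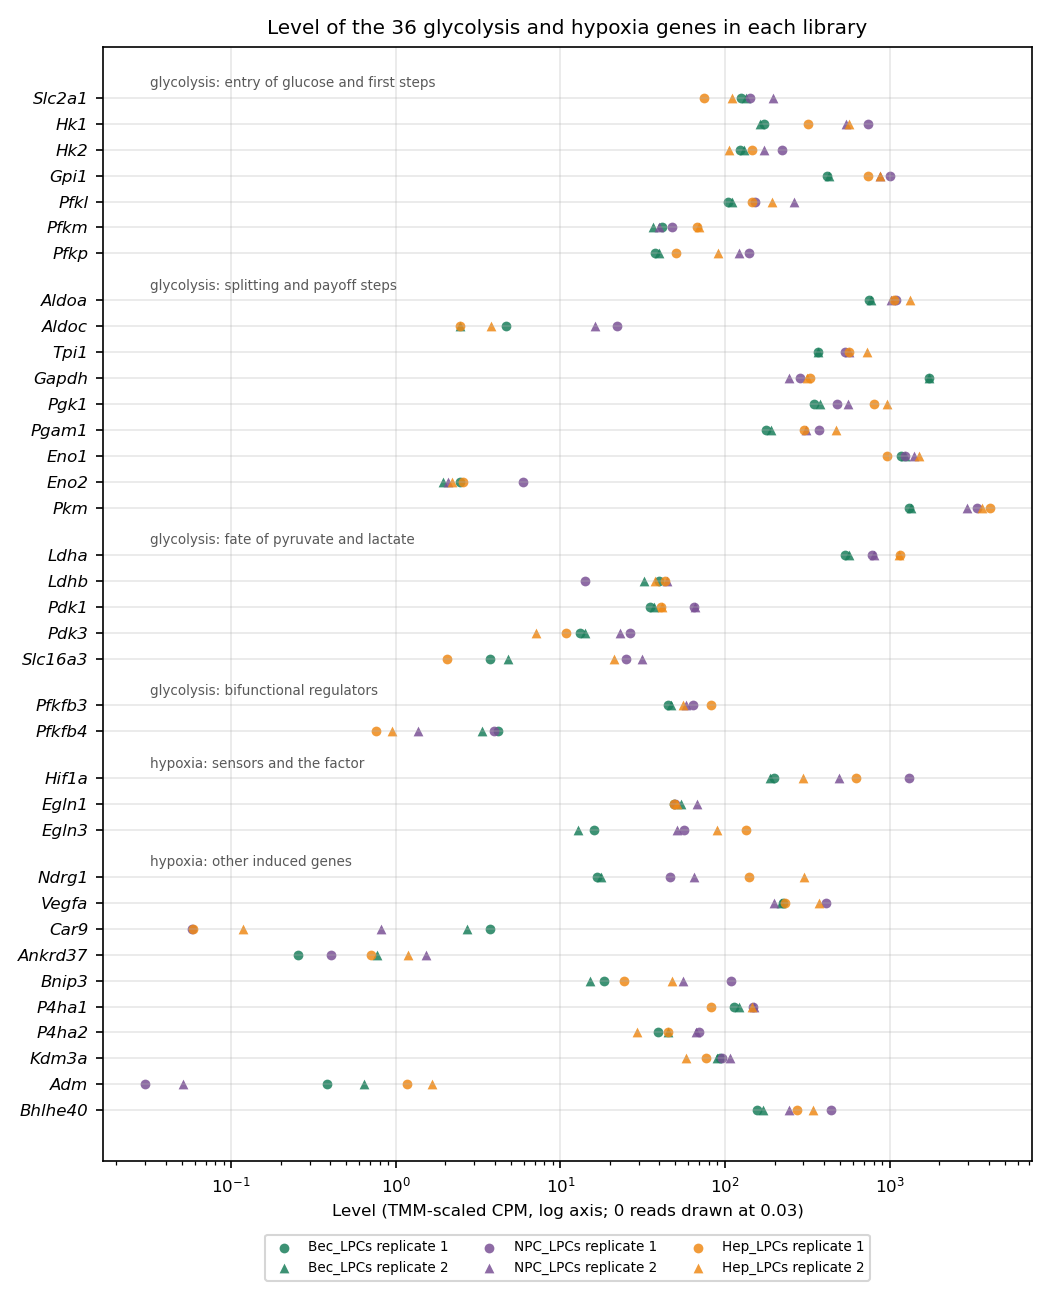
Level of each of the 36 genes (TMM-scaled CPM, log axis) in the 6 libraries, with colour for the group and circles or triangles for replicates 1 and 2. The Bec_LPCs points of Hk1, Pkm, Gpi1, Ndrg1 and Egln3 lie left of those of the other 4 libraries, and the Bec_LPCs points of Gapdh lie far to the right of them.

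Bec_LPCs differed from NPC_LPCs mainly by lower levels. edgeR's quasi-likelihood test with Benjamini-Hochberg adjustment over all 12866 genes tested called 10 of 36 members at an adjusted p under 0.05, 1 higher and 9 lower, beside 11.3% of all genes called, 4.89% higher and 6.45% lower. The 10 were 27.8% of the members. Unless another fit is named, called and passed refer to this test here and below. The lower members were Hk1, Gpi1, Pfkp, Aldoc, Pkm, Pdk1, Egln3, Ndrg1 and Bnip3, and the higher one was Gapdh. The median log2 fold change of the 36 was -0.66 beside 0.01 over all genes, and 31 of 36 had a negative sign. Both Bec_LPCs libraries lay below both NPC_LPCs libraries for 26 members, beside 33.0% of all genes, and above them for 3, beside 37.0%.

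Bec_LPCs against Hep_LPCs gave 13 called members of 36, 2 higher and 11 lower. This total, 36.1%, was close to the 33.4% of all genes called in the same comparison, so the number of calls is not a result about the members. The directions were less even: 16.1% of all genes were called higher and 17.2% lower, against 5.56% and 30.6% of the members. The lower members were Hk1, Gpi1, Pfkm, Aldoa, Tpi1, Pgk1, Pgam1, Pkm, Ldha, Egln3 and Ndrg1, and the higher ones were Gapdh and Car9. The median was -0.66 beside 0.03 over all genes. Libraries did not overlap for 20 members lower in Bec_LPCs (36.8% of all genes) and for 6 higher (40.8%). These 2 comparisons share the Bec_LPCs libraries and the fit of all 6 libraries and are given side by side, not as 2 tests of the same thing.

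Several limits apply to both. With either Bec_LPCs library left out, 1 of 10 calls remained against NPC_LPCs (Gapdh) and 3 of 13 against Hep_LPCs (Gapdh, Egln3 and Ndrg1). No called member changed sign in any alternative. The compared libraries did not overlap for any called member, so a change of sign was hardly possible and its absence adds no support. The 2 Bec_LPCs libraries were much closer to each other (median absolute log2 difference of 0.09 over the members) than the 2 NPC_LPCs (0.25) or the 2 Hep_LPCs libraries (0.51). The fit of all 6 libraries takes 1 spread per gene for the 3 groups. Its p-values therefore do not rest on the compared libraries alone. Without NPC_LPCs replicate 1, 5 members were called against NPC_LPCs. With library sizes left unscaled, which moves the median of all genes to 0.17 and 0.21, the calls over all genes were 939 higher and 594 lower against NPC_LPCs, in place of 629 and 830, and 2703 and 1736 against Hep_LPCs, in place of 2074 and 2218. The members' calls were then 1 higher and 8 lower, and 4 higher and 10 lower. DESeq2's Wald test called 10 more members lower against NPC_LPCs (Aldoa, Tpi1, Pgk1, Pgam1, Pfkl, Ldha, Pdk3, Slc16a3, Hif1a and Bhlhe40) and 5 more against Hep_LPCs (Pfkp, Hif1a, Bnip3 and Bhlhe40 lower, Pfkfb4 higher), beside 22.5% and 42.0% of all genes called by it.

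**Figure D2:**
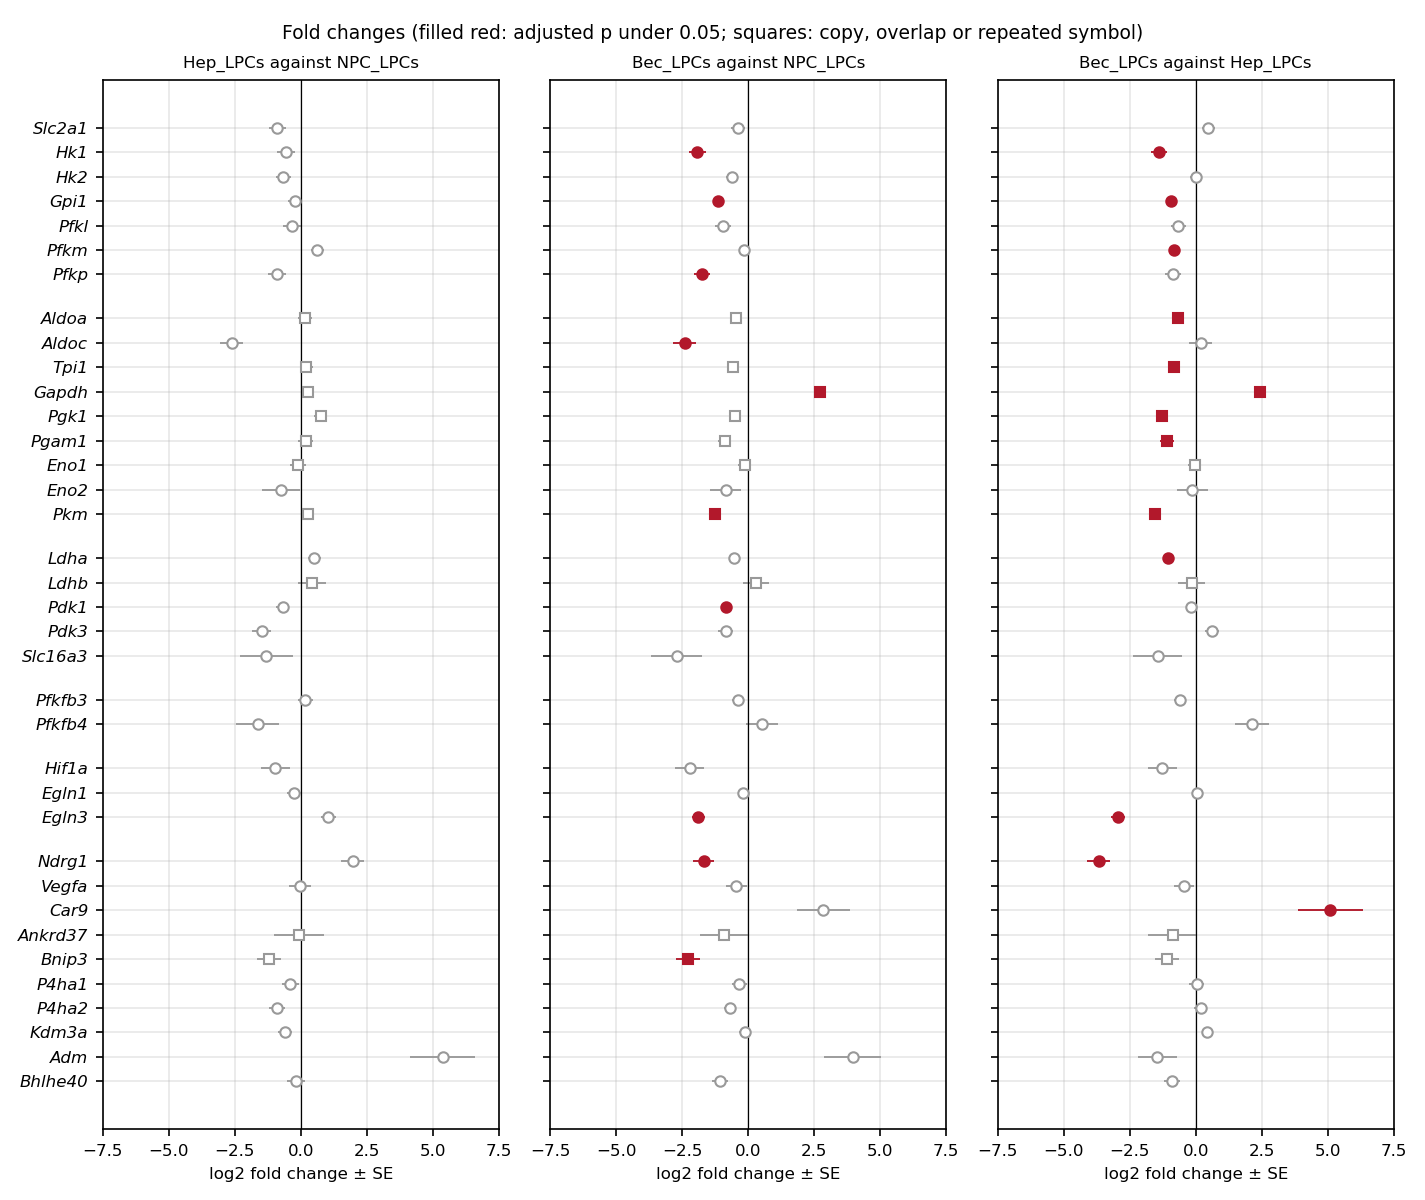
Log2 fold changes with standard errors of the 36 genes in the 3 comparisons. Filled red symbols are genes called at an adjusted p under 0.05 over all genes, and squares are genes with a near-identical copy, an overlapping gene or a repeated symbol. No symbol is filled for Hep_LPCs against NPC_LPCs, and the filled symbols of the other panels lie left of 0 except Gapdh and Car9.

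Among the 7 genes of glucose entry and the first steps, 3 were lower in Bec_LPCs than in NPC_LPCs and 3 lower than in Hep_LPCs, beside 6.45% and 17.2% of all genes called lower. Hk1, the most widely expressed hexokinase (chr10:62268855-62379908, minus strand), stood at 172 and 164 CPM in Bec_LPCs, 742 and 546 CPM in NPC_LPCs and 318 and 565 CPM in Hep_LPCs. Every Bec_LPCs library lay below every other library. The log2 fold change was -1.94 ± 0.32 (adjusted p = 0.0231) against NPC_LPCs and -1.40 ± 0.31 (adjusted p = 0.0226) against Hep_LPCs. Hk2, the hexokinase linked to growth and to insulin (chr6:82725025-82774454, minus strand), read 124 and 131 CPM in Bec_LPCs, 222 and 172 CPM in NPC_LPCs and 146 and 105 CPM in Hep_LPCs, and neither change of -0.63 ± 0.23 (adjusted p = 0.125) and 0.02 ± 0.23 (adjusted p = 0.953) passed. Slc2a1, which encodes the glucose transporter GLUT1 (chr4:119108711-119137983, plus strand), measured 124 and 135 CPM in Bec_LPCs, 141 and 197 CPM in NPC_LPCs and 75.1 and 111 CPM in Hep_LPCs. Its Bec_LPCs levels lay between those of the other groups, and neither comparison with Bec_LPCs passed, at -0.38 ± 0.26 (adjusted p = 0.361) and 0.48 ± 0.26 (adjusted p = 0.193).

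Gpi1, glucose-6-phosphate isomerase (chr7:34201330-34230336, minus strand), stood at 415 and 429.9 CPM in Bec_LPCs, 999.5 and 869 CPM in NPC_LPCs and 737 and 874 CPM in Hep_LPCs. Its change was -1.14 ± 0.18 (adjusted p = 0.0205) against NPC_LPCs and -0.93 ± 0.18 (adjusted p = 0.0144) against Hep_LPCs, with no overlap in either. The 3 phosphofructokinase genes encode the committing enzyme of the pathway, and each had a negative log2 fold change in both comparisons. Pfkp, the platelet type (chr13:6579768-6648777, minus strand), read 37.6 and 39.998 CPM in Bec_LPCs, 140.1 and 121 CPM in NPC_LPCs and 50.7 and 90.4 CPM in Hep_LPCs, and its change was -1.75 ± 0.30 (adjusted p = 0.024) against NPC_LPCs but -0.86 ± 0.29 (adjusted p = 0.0654) against Hep_LPCs, which did not pass. Pfkm, the muscle type (chr15:98092589-98132451, plus strand), read 41.2 and 36.3 CPM in Bec_LPCs, 47.8 and 39.7 CPM in NPC_LPCs and 68.1 and 69.2 CPM in Hep_LPCs. It was lower than in Hep_LPCs by -0.82 ± 0.18 (adjusted p = 0.0196) and overlapped NPC_LPCs, at -0.17 ± 0.18 (adjusted p = 0.54). Pfkl, the liver type, did not overlap either group but passed in neither comparison, with -0.96 ± 0.29 (adjusted p = 0.0891) and -0.66 ± 0.29 (adjusted p = 0.13).

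The 9 genes of the splitting and payoff steps gave 3 calls against NPC_LPCs and 6 against Hep_LPCs, beside 11.3% and 33.4% of all genes, and Gapdh was the only one of them called higher in each. Pkm, the pyruvate kinase that forms the last step (chr9:59656368-59679375, plus strand), was the member with the most reads in NPC_LPCs and Hep_LPCs, at 1311 and 1355 CPM in Bec_LPCs, 3420.1 and 2957 CPM in NPC_LPCs and 4063 and 3651 CPM in Hep_LPCs. Both Bec_LPCs libraries lay far below the other 4. The change was -1.26 ± 0.18 (adjusted p = 0.0158) against NPC_LPCs and -1.53 ± 0.18 (adjusted p = 0.0042) against Hep_LPCs. These counts are per gene and do not separate its splice forms. Pgk1 (chrX:106187100-106203699, plus strand), whose promoter is shown above, read 349 and 378 CPM in Bec_LPCs, 478 and 562 CPM in NPC_LPCs and 807 and 963 CPM in Hep_LPCs, a change of -0.52 ± 0.18 (adjusted p = 0.118) against NPC_LPCs, which did not pass, and of -1.28 ± 0.18 (adjusted p = 0.0071) against Hep_LPCs.

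Tpi1, triosephosphate isomerase (chr6:124810586-124814296, minus strand), measured 367 and 368 CPM in Bec_LPCs, 537 and 566 CPM in NPC_LPCs and 569 and 724 CPM in Hep_LPCs. It was lower than in Hep_LPCs by -0.81 ± 0.18 (adjusted p = 0.0214), while the change against NPC_LPCs was -0.58 ± 0.18 (adjusted p = 0.0884). Pgam1, phosphoglycerate mutase (chr19:41911923-41918660, plus strand), measured 178 and 189 CPM in Bec_LPCs, 370.1 and 310.4 CPM in NPC_LPCs and 304 and 476 CPM in Hep_LPCs, with -1.09 ± 0.25 (adjusted p = 0.024) against Hep_LPCs and -0.89 ± 0.25 (adjusted p = 0.0729) against NPC_LPCs. The main aldolase, Aldoa, measured 753 and 767 CPM in Bec_LPCs, 1092 and 1027 CPM in NPC_LPCs and 1059 and 1336 CPM in Hep_LPCs. Its change of -0.66 ± 0.18 (adjusted p = 0.0391) against Hep_LPCs was the smallest that passed there, and -0.48 ± 0.18 (adjusted p = 0.137) against NPC_LPCs did not. All 3 of these enzymes were thus lowest in the Bec_LPCs libraries, with no overlap with either group.

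Aldoc, the brain-type aldolase (chr11:78322968-78327781, plus strand), was set apart in NPC_LPCs, at 4.68 and 2.44 CPM in Bec_LPCs, 21.9 and 16.2 CPM in NPC_LPCs and 2.46 and 3.80 CPM in Hep_LPCs. The change of Bec_LPCs against NPC_LPCs was -2.42 ± 0.45 (adjusted p = 0.0303), and Bec_LPCs overlapped Hep_LPCs, at 0.19 ± 0.44 (adjusted p = 0.764). Eno1, the main enolase, changed little, with -0.14 ± 0.25 (adjusted p = 0.744) and -0.04 ± 0.25 (adjusted p = 0.908). Eno2, the neuronal enolase, stayed between 1.93 and 5.89 CPM in all libraries and passed in no comparison.

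Gapdh, glyceraldehyde-3-phosphate dehydrogenase (chr6:125161715-125166467, minus strand), went the other way. It had 40924 and 40397 reads in Bec_LPCs, 4956 and 4809 in NPC_LPCs and 5639 and 5316 in Hep_LPCs, which is 1727 and 1732 CPM in Bec_LPCs, 286 and 244 CPM in NPC_LPCs and 330.0 and 315 CPM in Hep_LPCs. The change was 2.70 ± 0.18 (adjusted p = 0.00165) against NPC_LPCs and 2.42 ± 0.17 (adjusted p = 0.00144) against Hep_LPCs, and it was called in each of the 12 alternatives that could test it in each comparison. Its transcript has 84 near-identical copies in GENCODE M21, of which 80 are annotated as pseudogenes, so reads of this gene can be split by a counting rule. The NPC_LPCs and Hep_LPCs tables give both a count and an FPKM (fragments scaled for gene length and depth), from which a length can be worked out. For Gapdh this length was a median of 31589 bases, 7.64 times its annotated exonic length of 4133 bases. The other 34 members with enough reads had ratios of 0.35 to 1.82, and 0.604% of 12088 genes exceeded 5. The rows of the Gapdh copies that the tables do list held 2 to 7 reads per library. The Gapdh values of the Bec_LPCs tables and of the other tables are therefore not shown to be counted alike, and its difference is uncertain.

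**Figure D3:**
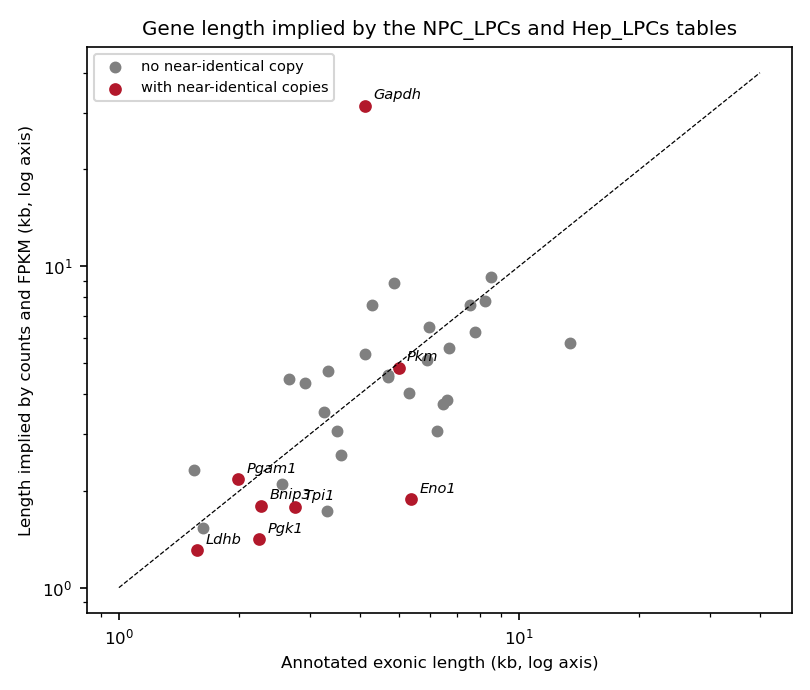
Gene length implied by the deposited counts and FPKM of the NPC_LPCs and Hep_LPCs tables against the annotated exonic length, both in kb on log axes, with 1 point per gene and red for genes with near-identical copies. Gapdh lies at 7.64 times the dashed line of equal lengths, and the other members lie between 0.35 and 1.82 times.

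Near-identical copies also exist for Bnip3, Pgk1, Eno1, Tpi1, Pgam1, Pkm and Ldhb (1 to 4 each). The 1 copy of these with a row of its own was Eno1b, a copy of Eno1, with 15 and 19 reads in Bec_LPCs, 339 and 487 in NPC_LPCs and 253 and 328 in Hep_LPCs. Ankrd37 overlaps Lrp2bp and Ufsp2 over 26.4% of its exonic length, and Aldoa has more than 1 entry in the annotation. The other 26 members were taken as counted alike, a name for genes with none of these features. Refitted on the 10958 tested genes of this kind, the comparison with NPC_LPCs called 6 of 26 members, all lower (Hk1, Gpi1, Pfkp, Aldoc, Pdk1 and Egln3), beside 7.19% of these genes called, 3.03% higher and 4.16% lower. The comparison with Hep_LPCs called 7 of 26, 6 lower and Car9 higher, a share below the 31.0% of these genes called there, of which 14.9% were higher and 16.1% lower. The medians of the 26 were -0.82 and -0.56.

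Of the members, 5 act on the fate of pyruvate and lactate. Ldha (chr7:46841475-46855627, plus strand), with 7 motif matches in the window shown above, read 536 and 568 CPM in Bec_LPCs, 786 and 805 CPM in NPC_LPCs and 1152 and 1145 CPM in Hep_LPCs. Its levels were ordered Bec_LPCs, NPC_LPCs, Hep_LPCs without overlap, and the change was -1.06 ± 0.15 (adjusted p = 0.00732) against Hep_LPCs and -0.53 ± 0.15 (adjusted p = 0.0771) against NPC_LPCs, of which the first passed. Ldhb, the heart-type subunit (chr6:142490249-142507957, minus strand), read 39.8 and 32.3 CPM in Bec_LPCs, 14.2 and 44.5 CPM in NPC_LPCs and 43.0 and 37.4 CPM in Hep_LPCs, so NPC_LPCs replicate 1 stood apart from the other 5 libraries, and no comparison passed. Pdk1, a pyruvate dehydrogenase kinase induced by HIF (chr2:71873224-71903858, plus strand), read 35.2 and 37.1 CPM in Bec_LPCs, 64.7 and 66.1 CPM in NPC_LPCs and 41.1 and 41.2 CPM in Hep_LPCs. It was lower in Bec_LPCs than in NPC_LPCs by -0.86 ± 0.15 (adjusted p = 0.0273) and not called against Hep_LPCs, at -0.19 ± 0.15 (adjusted p = 0.37). Pdk3, another of these kinases, ranged from 7.12 CPM to 26.6 CPM and passed in neither comparison with Bec_LPCs.

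Slc16a3 encodes MCT4, the transporter that exports lactate from glycolytic cells, and read 3.71 and 4.80 CPM in Bec_LPCs, 24.9 and 31.2 CPM in NPC_LPCs and 2.05 and 21.1 CPM in Hep_LPCs. The Hep_LPCs libraries differed by 3.36 on the log2 scale, the widest replicate gap of any member of at least 1 CPM, and the changes of -2.72 ± 0.97 (adjusted p = 0.122) and -1.44 ± 0.94 (adjusted p = 0.272) did not pass. The bifunctional regulators set the level of a sugar bisphosphate that activates phosphofructokinase. Pfkfb3 (chr2:11471433-11554077, minus strand) read 45.1 and 47.2 CPM in Bec_LPCs, 64.0 and 57.6 CPM in NPC_LPCs and 82.5 and 55.5 CPM in Hep_LPCs, and neither -0.40 ± 0.23 (adjusted p = 0.282) nor -0.58 ± 0.23 (adjusted p = 0.0949) passed. Pfkfb4 reached at most 4.18 CPM, with 0.51 ± 0.61 (adjusted p = 0.61) and 2.13 ± 0.65 (adjusted p = 0.0518).

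**Figure D4:**
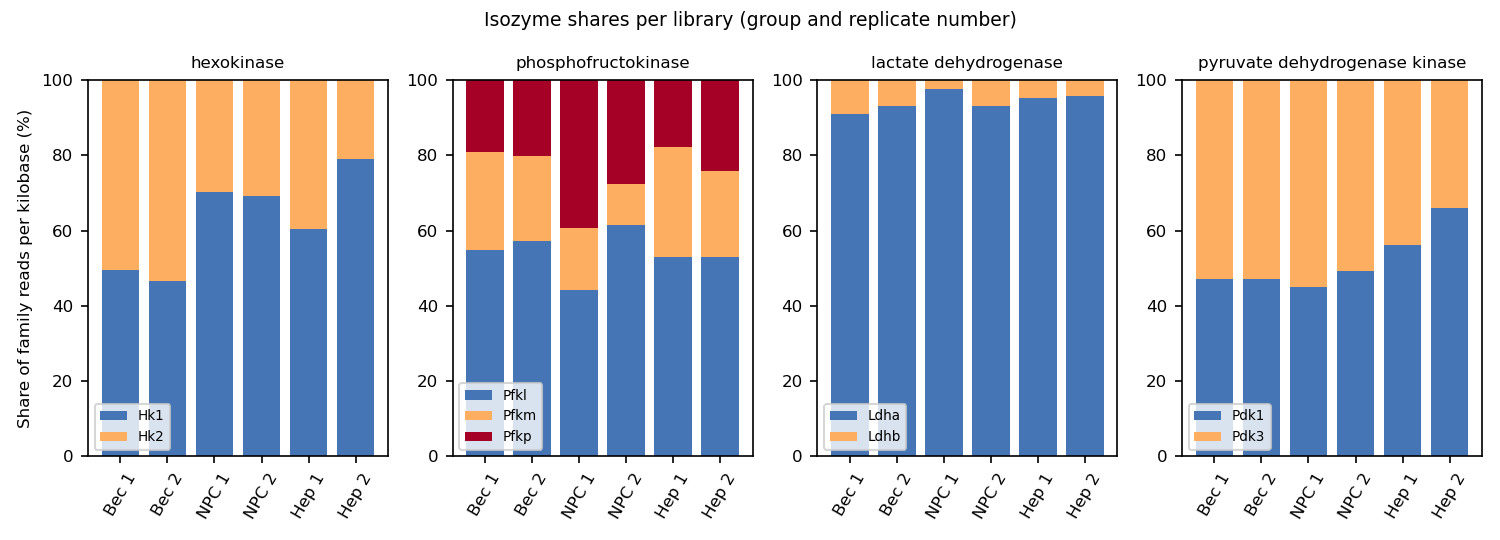
Share of each isozyme in the reads per kilobase of its family (%, stacked to 100) in each of the 6 libraries. The Hk1 share is lowest in the Bec_LPCs libraries, and the Pfkp share is highest in the NPC_LPCs libraries.

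Per kilobase of the length implied by the counts and FPKM of NPC_LPCs and Hep_LPCs, the isozymes of a step can be set against each other. Hk1 made up 49.5% and 46.7% of hexokinase reads per kilobase in Bec_LPCs, 70.1% and 69.1% in NPC_LPCs and 60.4% and 79.1% in Hep_LPCs, the rest being Hk2. Pfkp held 19.2% and 20.2% of the phosphofructokinase share in Bec_LPCs, 39.4% and 27.5% in NPC_LPCs and 17.8% and 24.2% in Hep_LPCs. Ldha held at least 91.1% of lactate dehydrogenase, Aldoa at least 97.6% of aldolase and Eno1 at least 99.8% of enolase in every library. Pdk3 held 52.9% and 53.0% of the 2 kinases in Bec_LPCs, 55.0% and 50.8% in NPC_LPCs and 43.8% and 34.0% in Hep_LPCs. Isozyme shares were not tested and rest on the assumption that the implied length applies. For Bec_LPCs, which has no FPKM, that length was taken from the other 2 groups.

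The oxygen-sensing members were Hif1a, Egln1 and Egln3. Hif1a, which encodes HIF-1α (chr12:73901375-73947530, plus strand), read 198 and 189 CPM in Bec_LPCs, 1304 and 492 CPM in NPC_LPCs and 629 and 299 CPM in Hep_LPCs. Both Bec_LPCs libraries were below the other 4, yet the NPC_LPCs and Hep_LPCs replicates were each more than 2-fold apart, and -2.22 ± 0.55 (adjusted p = 0.0571) and -1.26 ± 0.54 (adjusted p = 0.117) did not pass. HIF-1α is regulated mainly as a protein, which was not measured. Egln3 (chr12:54178981-54203860, minus strand) read 16.1 and 12.7 CPM in Bec_LPCs, 56.3 and 51.1 CPM in NPC_LPCs and 133 and 89.7 CPM in Hep_LPCs. The 3 groups did not overlap, and the change was -1.90 ± 0.25 (adjusted p = 0.0141) against NPC_LPCs and -2.95 ± 0.26 (adjusted p = 0.00239) against Hep_LPCs. Egln1, the main oxygen sensor among the prolyl hydroxylases, stood between 48.8 and 67.6 CPM in all 6 libraries.

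Of the 10 other hypoxia-induced members, 2 were lower in Bec_LPCs than in NPC_LPCs, and 1 was lower and 1 higher than in Hep_LPCs. The shares of all genes called were 11.3% and 33.4%, so 2 calls of 10 against Hep_LPCs are fewer than the background and no result about these members. Ndrg1, a stress-induced gene linked to differentiation (chr15:66929318-66969640, minus strand), read 16.8 and 17.7 CPM in Bec_LPCs, 46.3 and 64.8 CPM in NPC_LPCs and 140.2 and 303 CPM in Hep_LPCs. The 3 groups again did not overlap. The change against Hep_LPCs was -3.68 ± 0.42 (adjusted p = 0.00417), the most negative of all members there, and -1.69 ± 0.39 (adjusted p = 0.0487) against NPC_LPCs, a call that held in 6 of 13 alternatives and was lost with library sizes left unscaled, with limma-voom, in the fit of counted-alike genes and without any 1 of the 4 libraries. Bnip3, a mitophagy receptor (chr7:138890836-138909519, minus strand), read 18.4 and 15.2 CPM in Bec_LPCs, 109 and 55.3 CPM in NPC_LPCs and 24.3 and 47.3 CPM in Hep_LPCs. It was lower than in NPC_LPCs by -2.29 ± 0.45 (adjusted p = 0.0346) and did not pass against Hep_LPCs, at -1.09 ± 0.44 (adjusted p = 0.103).

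Car9 (chr4:43506966-43513729, plus strand) had 152 reads over the Bec_LPCs libraries, 17 over the NPC_LPCs libraries and 3 over the Hep_LPCs libraries, which is 3.76 and 2.70 CPM in Bec_LPCs, 0.0577 and 0.813 CPM in NPC_LPCs and 0.0585 and 0.119 CPM in Hep_LPCs. On library totals the ratio of Bec_LPCs to Hep_LPCs was 36.6 (exact 95% interval 12.3 to 179, counting error only), and the call against Hep_LPCs (adjusted p = 0.0271) held in 8 of 12 alternatives. It was lost without Hep_LPCs replicate 1, without Hep_LPCs replicate 2 and without either Bec_LPCs library. Against NPC_LPCs the ratio was 7.03 (4.25 to 12.4), and the change of 2.85 on the log2 scale was not called (adjusted p = 0.122). Of the 17 reads in NPC_LPCs, 16 came from replicate 2, and without that library the change was 5.66 and was called (adjusted p = 0.0406). Adm, which encodes the vasodilating peptide adrenomedullin, had 24 reads over Bec_LPCs, 1 over NPC_LPCs and 48 over Hep_LPCs and was not called by edgeR against either group. Car9 was thus highest and Adm intermediate in Bec_LPCs, both at low levels.

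Vegfa, the main vessel growth factor (chr17:46016993-46032369, minus strand), read 225 and 218 CPM in Bec_LPCs, 408 and 198 CPM in NPC_LPCs and 233 and 373 CPM in Hep_LPCs, and neither -0.45 ± 0.39 (adjusted p = 0.465) nor -0.45 ± 0.39 (adjusted p = 0.394) passed. Ankrd37, a small HIF target (chr8:45996902-46005707, minus strand), stayed between 0.253 and 1.53 CPM. The collagen prolyl hydroxylase subunits P4ha1 and P4ha2, the histone demethylase gene Kdm3a and the circadian repressor gene Bhlhe40 passed in neither comparison with Bec_LPCs by edgeR in the fit of all 6 libraries. Their log2 fold changes ran from -1.07 (Bhlhe40) to -0.14 (Kdm3a) against NPC_LPCs and from -0.91 (Bhlhe40) to 0.44 (Kdm3a) against Hep_LPCs. Other settings called some of them. Bhlhe40 was called by DESeq2 against NPC_LPCs (adjusted p = 0.00717) and Hep_LPCs (adjusted p = 0.0152), in edgeR's fit of the 4 libraries compared with Hep_LPCs (adjusted p = 0.0201), and against NPC_LPCs without NPC_LPCs replicate 2 (adjusted p = 0.0323). In edgeR's fits P4ha2 was called against NPC_LPCs with the 4 libraries compared (adjusted p = 0.0348), Kdm3a against Hep_LPCs with library sizes left unscaled (adjusted p = 0.0488) and without Hep_LPCs replicate 1 (adjusted p = 0.0396), and P4ha1 against Hep_LPCs without Hep_LPCs replicate 2 (adjusted p = 0.0456).

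Proliferation markers moved with the comparison against Hep_LPCs. Of 6 (Mki67, Top2a, Ccnb1, Cdk1, Mcm2 and Pcna), 4 were called lower in Bec_LPCs than in Hep_LPCs, beside 17.2% of all genes. None of the 6 was called against NPC_LPCs, beside 11.3% of all genes. Their summed level was 572 and 681 CPM in Bec_LPCs, 856 and 1496 CPM in NPC_LPCs and 2245 and 1312 CPM in Hep_LPCs, with none of the 6 at 0. Their part in the differences of the glycolytic genes was not tested, and neither was that of the mesenchymal markers given above.

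Hep_LPCs and NPC_LPCs, whose tables share a layout, were compared in a fit of their 4 libraries. edgeR's quasi-likelihood test called 0 of 35 members tested, beside 0.781% of 12158 genes; Car9 did not pass the filter on low counts. Before adjustment, p was under 0.05 for 5 members higher in Hep_LPCs (10.5% of all genes) and for 7 lower (11.6%). DESeq2 called 4, Ndrg1 and Egln3 higher and Aldoc and Pdk3 lower, beside 12.3% of all genes, and limma-voom called 0, beside 0.0411%. The libraries did not overlap for 9 members higher in Hep_LPCs (28.9% of all genes) and 12 lower (27.7%). The median of the members was -0.23 beside -0.00 over all genes.

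Of the 35 members tested, 8 differed by more than 1 on the log2 scale, none of them past the adjusted threshold in edgeR. Adm had 48 reads in Hep_LPCs and 1 in NPC_LPCs, a ratio of 52.3 on library totals with an exact 95% interval of 8.95 to 2109 (counting error only), and an adjusted p of 0.0982. Ndrg1, at 1.97 ± 0.43 (adjusted p = 0.0907), and Egln3, at 1.03 ± 0.28 (adjusted p = 0.121), were also higher in sign. The negative ones were Aldoc at -2.62 ± 0.44 (adjusted p = 0.0692), Pfkfb4 at -1.63 ± 0.81 (adjusted p = 0.298), Pdk3 at -1.49 ± 0.36 (adjusted p = 0.106), Slc16a3 at -1.30 ± 1.00 (adjusted p = 0.492) and Bnip3 at -1.21 ± 0.46 (adjusted p = 0.2). Of the enzymes with the most reads, Pkm differed by 0.26 ± 0.26 (adjusted p = 0.595), Ldha by 0.51 ± 0.24 (adjusted p = 0.278) and Pgk1 by 0.75 ± 0.26 (adjusted p = 0.18). A fit of all 6 libraries called 5 members here (Adm and Ndrg1 higher, Aldoc, Pdk1 and Pdk3 lower), with 1274 genes in all in place of 95. Leaving out each of the 4 libraries in turn called 0 members.

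Replicate spread differed between the groups. The median absolute log2 difference between the 2 libraries was 0.09 over members and 0.09 over all genes in Bec_LPCs, 0.25 and 0.32 in NPC_LPCs, and 0.51 and 0.38 in Hep_LPCs, over genes of at least 1 CPM. In NPC_LPCs the replicates of Eno2, Ldhb, Pfkfb4, Hif1a and Vegfa differed by more than 1 on this scale, in Hep_LPCs those of Slc16a3, Hif1a and Ndrg1, and in Bec_LPCs none. The counts of the 2 Bec_LPCs libraries differed by more than counting noise, with a chi-square of 5.71 per gene over 12653 genes of at least 20 reads, against 116 in NPC_LPCs and 96.8 in Hep_LPCs. All 6 were counted as separate libraries, as labelled, although repeat preparations of 1 RNA would also differ by more than counting noise.

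Other genes of the same pathways were read from lists. They are given without regard to near-identical copies or overlapping genes. Whether they were counted alike between Bec_LPCs and the other groups is therefore not shown. Among 21 other glycolytic enzymes and glucose transporters, 15 were tested against Bec_LPCs. Against NPC_LPCs 2 were lower and 0 higher, namely Pgm2, a phosphoglucomutase, by -1.54 ± 0.23 (adjusted p = 0.0194) and Pfkfb2, a heart-type bifunctional enzyme, by -1.23 ± 0.20 (adjusted p = 0.0231). Higher genes numbered 2 at p under 0.05 before adjustment, 0 with DESeq2 and 2 with limma-voom. Against Hep_LPCs 3 were lower and 2 higher. The 2 higher genes, Gapdhs and Pgam2, read only 0.643 to 1.22 CPM in Bec_LPCs and had no read in Hep_LPCs or NPC_LPCs. The shares called were 13.3% against NPC_LPCs and 33.3% against Hep_LPCs, close to the 11.3% and 33.4% of all genes. Pfkfb2 read 24.6 and 23.0 CPM in Bec_LPCs, 64.6 and 47.2 CPM in NPC_LPCs and 72.4 and 73.3 CPM in Hep_LPCs, a change of -1.61 ± 0.20 (adjusted p = 0.00528) there, and Pklr, the liver pyruvate kinase, read 20.0 and 16.8 CPM in Bec_LPCs, 44.9 and 27.4 CPM in NPC_LPCs and 67.5 and 143 CPM in Hep_LPCs, a change of -2.51 ± 0.43 (adjusted p = 0.0114). Pklr was below Pkm in every library by reads.

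Of 41 other hypoxia-induced genes, 39 were tested. In Bec_LPCs 5 were lower than in NPC_LPCs and 0 higher by edgeR, with 0 higher before adjustment at p under 0.05 and 0 with DESeq2 or limma-voom. Their median was -0.29 beside 0.01 over all genes. Nampt, which makes NAD, changed by -1.44 ± 0.21 (adjusted p = 0.0173), Fam162a, a mitochondrial gene, by -1.07 ± 0.18 (adjusted p = 0.0229), and the metallothionein Mt2 by -5.59 ± 1.00 (adjusted p = 0.028). The 5 were 12.8% of those tested, beside 6.45% of all genes called lower. Against Hep_LPCs 7 were lower (17.9%, beside 17.2% of all genes) and 3 higher (7.69%, beside 16.1%), with a median of -0.09 beside 0.03. Car12, another membrane carbonic anhydrase, read 7.43 and 7.29 CPM in Bec_LPCs, 24.5 and 14.9 CPM in NPC_LPCs and 74.4 and 72.2 CPM in Hep_LPCs and changed by -3.32 ± 0.29 (adjusted p = 0.00231). Lox, which cross-links collagen, read 95.1 and 125 CPM in Bec_LPCs, 90.3 and 13.3 CPM in NPC_LPCs and 0.0585 and 0 CPM in Hep_LPCs, and Rora, a nuclear receptor, changed by 2.70 ± 0.34 (adjusted p = 0.00506). Car12 and Car9, both carbonic anhydrases of the cell surface, thus moved in opposite directions.

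The machinery of oxygen sensing moved both ways. Of 12 further genes, 2 were higher in Bec_LPCs than in NPC_LPCs (Eloc and Rbx1, subunits of the ubiquitin ligase that marks HIF) and 1 was lower (Cited2, a competitor of HIF for its coactivator), beside 4.89% and 6.45% of all genes. The 4 called against Hep_LPCs were 33.3% of the list, the share of all genes being 33.4%. Against Hep_LPCs, Vhl, the substrate-binding subunit of that ligase, rose by 0.83 ± 0.21 (adjusted p = 0.03) and Eloc by 0.69 ± 0.18 (adjusted p = 0.0324), while Epas1, which encodes HIF-2α, changed by -1.48 ± 0.35 (adjusted p = 0.0261) and Cited2 by -0.83 ± 0.25 (adjusted p = 0.0476). Of 15 genes of pyruvate entry and lactate export, 6.67% were called against NPC_LPCs and 13.3% against Hep_LPCs, both below the shares of all genes. Pdk4, a starvation-induced kinase, was lower by -1.32 ± 0.31 (adjusted p = 0.0497) against NPC_LPCs and by -1.55 ± 0.31 (adjusted p = 0.0167) against Hep_LPCs, and the opposing phosphatase gene Pdp1 was higher than in Hep_LPCs by 1.43 ± 0.38 (adjusted p = 0.036). Of 5 tested gluconeogenesis genes, Fbp2 was lower than in Hep_LPCs, at 0 and 0 CPM in Bec_LPCs, 0.115 and 0.0508 CPM in NPC_LPCs and 1.58 and 1.42 CPM in Hep_LPCs.

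None of the 7 pentose phosphate genes, a side branch that makes NADPH and ribose, was called by edgeR in either comparison with Bec_LPCs. Before adjustment, p was under 0.05 for 2 higher and 1 lower gene against NPC_LPCs and for 0 against Hep_LPCs. DESeq2 called 2 against NPC_LPCs (G6pdx and Rpe) and 0 against Hep_LPCs, and limma-voom called 0 in both. Between Hep_LPCs and NPC_LPCs edgeR called 0 genes of these 6 lists. Of the hypoxia-induced list, 3 genes were then higher and 11 lower with p under 0.05 before adjustment. DESeq2 called 6 of that list, 3 of the other glycolytic enzymes, 2 of the oxygen-sensing list and 0 of the rest, and limma-voom called 0 in all 6 lists.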

How the data were processed

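Paired-end libraries of 6 samples were made from polyadenylated RNA with a strand-preserving kit, per the labels' protocols. The build mm10 and the tools HISAT2, HTSeq, Cufflinks, Trimmomatic and DESeq are named in the submitters' processing notes, and their roles, versions and annotation were not given in the sources used here. For every library the authors deposited whole-number counts per gene symbol, and for NPC_LPCs and Hep_LPCs also FPKM, used here for an alternative and for implied lengths (count over FPKM and depth). The strand option was not given in the sources used here either, and overlapping genes are uncertain.

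Older symbols were updated with RefSeq synonyms, repeated symbols were summed and the 14 unnamed rows of each Bec_LPCs table (at most 0.000191% of counts) were dropped. Shared genes held 95.4% and 95.3% of the counts in the Bec_LPCs libraries and 99.3% to 99.4% in the other 4. Genes passed filterByExpr, TMM factors scaled the library sizes, and the quasi-likelihood test of edgeR (robust, two-sided; edgeR 4.0.16, limma 3.58.1, R 4.3.3) was applied with Benjamini-Hochberg adjustment over all tested genes, called under 0.05. The fit for Hep_LPCs and NPC_LPCs held their 4 libraries, and the fit for both comparisons with Bec_LPCs held all 6. DESeq2 1.42.0 was an alternative. The fit was tested on simulated data.

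Coordinates are 1-based, from GENCODE M21 on GRCm38 (mm10). Counted-alike genes are protein-coding, share at most 25% of exonic length with another protein-coding gene (bedtools 2.31.1), have a unique symbol and no copy of 95% identity over 200 bases (minimap2 2.31-r1302). Values are printed in full for members called in at least 1 comparison and for 13 members chosen by name, and of each further list for up to 3 called genes by smallest adjusted p. Members and lists were chosen with earlier results of these data known. The alternatives were unscaled library sizes, DESeq2 size factors, no filter, a filter of 10 CPM in 2 libraries, DESeq2's Wald test, limma-voom, a replicate block, another set of libraries, counted-alike genes, each library left out and limma on log2(FPKM + 1).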

Additional observations from a re-analysis of the deposited data

How the results depend on the processing

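No called member changed sign in any alternative, which was hardly possible because the compared libraries did not overlap for any of them. DESeq2 size factors kept every called member of both comparisons with Bec_LPCs. For Bec_LPCs against NPC_LPCs (10 members, 1459 genes), DESeq2's Wald test called 20 and 2897, the fit of the 4 libraries compared 16 and 2491, counted-alike genes 6 and 788, and leaving out 1 library 1 to 9 and 115 to 1076. For Bec_LPCs against Hep_LPCs (13 members, 4292 genes), counted-alike genes gave 7 members, and leaving out 1 library 3 to 16 members and 491 to 4427 genes. For Hep_LPCs against NPC_LPCs (0 members, 95 genes), no filter gave 2 and 449, the 10 CPM filter 1 and 170, DESeq2's Wald test 4 and 1499, the fit of all 6 libraries 5 and 1274, limma-voom 0 and 5, counted-alike genes 0 and 63, limma on log2(FPKM + 1) 0 and 9, and leaving out 1 library 0 members and 0 to 356 genes. The counted-alike fits held fewer genes and the left-out fits fewer libraries. The cause of the changes in the calls was not tested for any alternative. Where 1 library was left, it was assumed to vary like the other groups.

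Same-numbered libraries did not deviate together throughout (r of their deviations was -0.05 between Hep_LPCs and NPC_LPCs, 0.15 between Bec_LPCs and NPC_LPCs, and -0.08 between Bec_LPCs and Hep_LPCs), so the numbers were not taken as pairs. With the replicate block, 8 members and 770 genes were called for Bec_LPCs against NPC_LPCs (Aldoc, Bnip3 and Pdk1 lost, Hif1a gained), 12 members and 3391 genes for Bec_LPCs against Hep_LPCs (Aldoa lost) and 0 members and 126 genes for Hep_LPCs against NPC_LPCs. With 2 libraries a group, differences under the replicate spread of a gene, and levels under 0.178 CPM, were not resolved.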
